A study of Mus musculus with 12 samples.

Results

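This account sets newborn mouse liver against mouse embryonic stem cells (ESC) in genome-wide profiles of 5-hydroxymethylcytosine (5hmC). It uses 4 of the 12 libraries of the series, chosen by their labels: P1 liver replicates 1 and 2 and ESC replicates 1 and 2, all read from both ends at 75 bp. P1 liver was whole liver of C57BL6/j mice at neonatal day 1-2, snap frozen after dissection, so it holds hepatocytes together with blood-forming, endothelial, stellate and immune cells. The ESC were the EB5 line of the 129/Ola strain, cultured with LIF, the cytokine that keeps such cells undifferentiated, and labelled day3. EB5 is 1 cell line, and strain, culture and tissue change together in this comparison and cannot be told apart. P1 heart, also whole C57BL6/j tissue of neonatal day 1-2 with 2 libraries, is given beside some results. Nothing in the labels states whether the replicates are separate animals or separate cultures.

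5hmC is made when Tet enzymes oxidise 5-methylcytosine, the main methylation mark of mammalian DNA. It is known to lie along the bodies of active genes and at distal regulatory DNA, and to be low at the start sites of strongly active genes with CpG-rich promoters. In ESC it is also known at developmental genes whose promoters carry repressive Polycomb marks. Here a modified glucose was attached to 5hmC by T4 beta-glucosyltransferase and coupled to biotin, and the captured fragments were sequenced. A value is a read density relative to the rest of the library, not a share of cytosines, and unenriched DNA was not analysed here. Each gene had a value for a promoter window of 4000 bp around its start and for the gene body that begins where the window ends, so window and body share no bases. Values are FPKM, read counts scaled by the length of the region and the depth of the library. Of 13581 genes in each table, 13549 had a body of length above 0.

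The 4 libraries differed in depth. P1 liver replicates 1 and 2 held 953679 and 3559071 reads, and ESC replicates 1 and 2 held 2016730 and 3963312 reads, as recovered from the steps between low FPKM values. The median gene body had 23 and 77 reads in P1 liver and 44 and 81 reads in ESC, and the median promoter window had 4 and 13 reads in P1 liver and 6 and 10 reads in ESC. The counting error alone was thus 20.9% and 11.4% of the median body in P1 liver and 15.1% and 11.1% in ESC, and 27.7% to 50% of the median promoter window in the 4 libraries. Replicates of a group differed by little more than counting noise. A chi-square of body reads between replicates, over bodies with at least 40 reads in the pair, came to 1.07 per degree of freedom in P1 liver and 1.15 in ESC, against 8.1 between P1 liver replicate 1 and ESC replicate 1 and 16.8 between the second replicates. The p-values below therefore measure a spread that is close to technical.

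Gene bodies changed in both directions between P1 liver and ESC. In limma's test, with Benjamini-Hochberg adjustment at 0.05, 2987 of 13448 bodies passed, which is 22.2%. Of these 1888 were higher in P1 liver, 14% of the bodies tested, and 1099 were lower, 8.17%. The genes named next are those with the largest changes among passing bodies with at least 20 reads in each library of the higher group. Of the 12 largest increases 6 lay in a stretch of chromosome 14. The calls rest on all 4 libraries: 0 were left without P1 liver replicate 1, 71 without P1 liver replicate 2, 7 without ESC replicate 1 and 10 without ESC replicate 2.

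Slc25a37, which encodes the mitochondrial iron importer mitoferrin 1 of red cell precursors, had 5.52 and 4.27 FPKM in P1 liver and 0.529 and 0.52 FPKM in ESC. Its body on chromosome 14 (mm9 69859908 to 69901160) was 3.01 ± 0.19 higher (log2 difference ± SE, adjusted p = 0.0092). Mgst1, a microsomal glutathione transferase abundant in liver, had 1.52 and 1.54 FPKM in P1 liver and 0.24 and 0.262 FPKM in ESC, a log2 difference of 2.26 ± 0.13. P1 heart minus ESC was 2.22 for Slc25a37 and 1.38 for Mgst1. Apob, the structural protein of liver lipoproteins, had 1.38 and 1.25 FPKM in P1 liver, 0.24 and 0.237 FPKM in ESC and 0.211 and 0.198 FPKM in P1 heart. Its log2 difference to ESC was 2.11 ± 0.14 with adjusted p = 0.01, and P1 heart minus ESC was -0.16. Man1a, a Golgi mannosidase that trims glycans, differed by 2.11 and Tmem30a, a subunit of lipid flippases, by 2.15. Serpina10, a liver-secreted inhibitor of activated clotting factor X, differed by 2.14 and Tsc22d2 by 2.08. The other members of these 12 largest increases were Jub (named Ajuba in RefSeq), Loxl2, Ctsb, Clu and Itm2b, with log2 differences of 2.06 to 2.84. They and Slc25a37 lie within the stretch of chromosome 14 described below, so that 6 of the 12 come from it. Against ESC, P1 heart was higher by 1.22 to 2.60 in the 12 except Serpina10 (0.00) and Apob (-0.16). In limma's test of P1 liver against P1 heart, Apob, Mgst1 and Man1a passed and the others of the 12 did not.

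**Figure D1:**
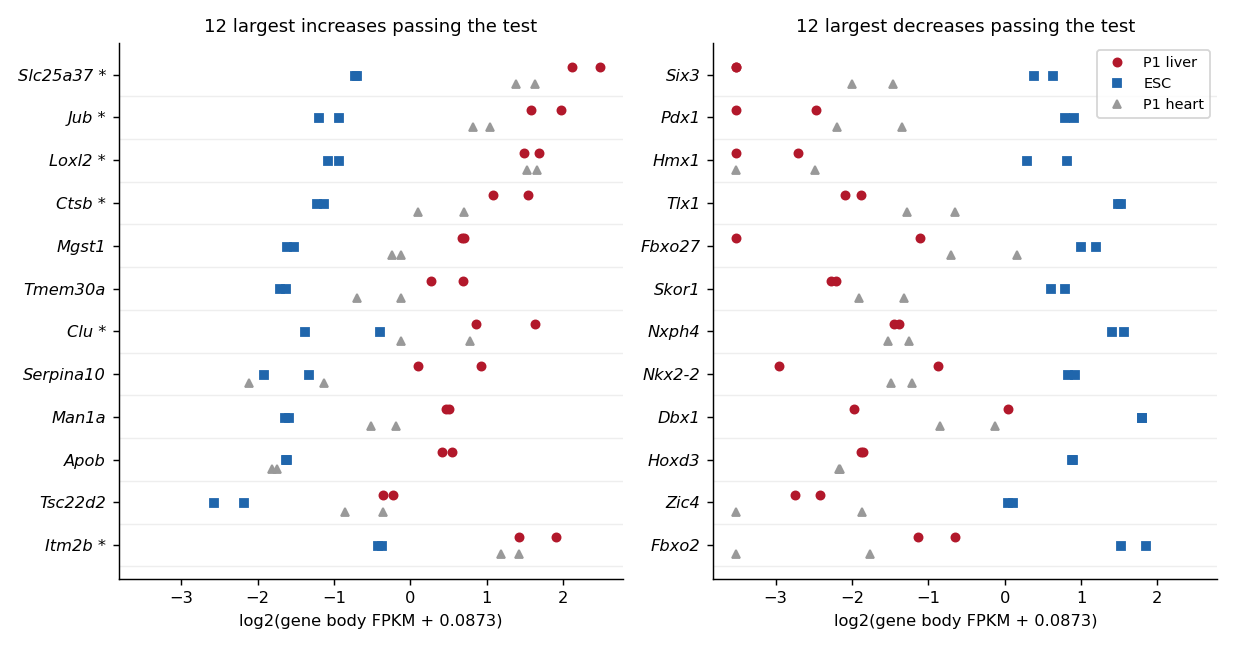
Gene body 5hmC in each library of the 12 largest increases (left) and the 12 largest decreases (right) of P1 liver against ESC that passed the test. Each point is 1 library on a log2 scale of FPKM plus the pseudocount of 0.0873, with P1 heart for comparison. Asterisks mark the genes in the chromosome 14 stretch. In each row the P1 liver points lie apart from the ESC points, since the genes were chosen for their large changes.

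The 12 largest decreases included Six3, Pdx1, Hmx1, Tlx1, Skor1, Nkx2-2, Dbx1, Hoxd3 and Zic4, which encode transcription factors or their cofactors. The share of such genes among all genes was not counted, so nothing particular to them is read from this. Six3, a homeobox factor of the forebrain and eye, had 0 and 0 reads over its body in P1 liver against 28 and 66 reads in ESC. With a floor of 3 reads over the P1 liver libraries, its body (chromosome 17, mm9 86014948 to 86026333) was at least 23-fold lower in P1 liver. Pdx1, the homeobox factor of pancreas and duodenum, had 0 and 0.0929 FPKM in P1 liver against 1.64 and 1.79 FPKM in ESC, a log2 difference of -3.84 ± 0.44 (adjusted p = 0.0154). Hoxd3 had 0.183 and 0.188 FPKM in P1 liver against 1.76 and 1.77 FPKM in ESC, a log2 difference of -2.76 ± 0.13 (adjusted p = 0.00799). Body reads in P1 liver were 0 and 2 for Pdx1 and 6 and 23 for Hoxd3. These genes were chosen for their large decreases, so their gap to ESC is no further evidence. Hmx1 differed by -3.67, Tlx1 by -3.48, Skor1 by -2.94, Nkx2-2 by -2.79, Dbx1 by -2.77 and Zic4 by -2.65. The remaining 3 were Fbxo27 and Fbxo2, glycoprotein-binding F-box proteins, with -3.41 and -2.58, and Nxph4, a neurexophilin, with -2.90. P1 heart was close to P1 liver at several of them. Nxph4 had 0.296 and 0.278 FPKM in P1 liver, 0.332 and 0.26 FPKM in P1 heart and 2.87 and 2.56 FPKM in ESC.

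Genes that hepatocytes use were examined in 5 lists. The lists were chosen with earlier results of these data known, so their direction is no independent evidence, and their counts are to be read against the 14% of all bodies that were higher and the 8.17% that were lower. Of 29 plasma protein genes tested, 13 were higher and 0 lower, with a median log2 difference of 0.83 beside 0.10 over all genes. Housekeeping genes, described below, had a median of 0.70, with 8 of 18 higher and 0 lower, so such a shift was not particular to hepatocyte genes. Alb, the gene of serum albumin, had 1.15 and 1.37 FPKM in P1 liver and 0.398 and 0.166 FPKM in ESC, a log2 difference of 1.94 ± 0.34 (adjusted p = 0.0226). Afp, its fetal relative, had 1.49 and 1.56 FPKM in P1 liver and 0.888 and 0.639 FPKM in ESC, a difference of 0.94 ± 0.21 (adjusted p = 0.0364). Further members that rose were Serpina1a, an antitrypsin gene with near-identical copies whose reads may be split, with 2.20, Itih3 with 1.72, Ambp with 1.57, Plg, the precursor of plasmin, with 1.48, Ttr, the carrier of thyroid hormone, with 1.32 and complement C3 with 1.12. P1 heart had a median of -0.66 in the same list, against the same ESC libraries, and 17 of the 29 bodies were higher in P1 liver than in P1 heart, where 6.09% of all bodies were.

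The enzymes of nitrogen and amino acid metabolism gave 10 higher and 0 lower of 25. Cps1, which commits ammonia to the urea cycle, had 0.948 and 0.83 FPKM in P1 liver and 0.205 and 0.264 FPKM in ESC, a log2 difference of 1.60 ± 0.17 (adjusted p = 0.0145). Otc, the next enzyme of the cycle, differed by 1.32, and Glud1, which releases ammonia from glutamate, by 2.02. Fah, of tyrosine breakdown, differed by 1.31. Mat1a, the methionine adenosyltransferase of adult liver, differed by 2.40 and lies in the chromosome 14 stretch. Of 28 genes of fatty acid oxidation and lipid handling, 14 were higher and 0 lower, with a median of 0.61. Acadl, an acyl-CoA dehydrogenase, differed by 1.34 and Acsl1, which activates long-chain fatty acids, by 1.14. Ppargc1a, a coactivator of mitochondrial genes, had 0.73 and 0.78 FPKM in P1 liver, 1 and 1.06 FPKM in P1 heart and 0.249 and 0.194 FPKM in ESC. Its difference of P1 liver to ESC was 1.45 ± 0.15, and P1 heart lay above P1 liver.

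Of 23 genes of gluconeogenesis, bile acids and drug metabolism, 8 were higher and 1 lower. Cyp7a1, which starts the conversion of cholesterol to bile acids, differed by 2.06, and Slco1b2, a hepatocyte uptake transporter, by 1.27. Cyp1a2, a drug-metabolising cytochrome P450 that the liver expresses mainly after birth, went the other way, with 0.222 and 0.417 FPKM in P1 liver and 1.58 and 1.6 FPKM in ESC, a difference of -2.09 ± 0.31 (adjusted p = 0.0174). Of 23 transcription factors of hepatocytes, 5 passed as higher, namely Gata4 (in the chromosome 14 stretch, 1.57), Prox1 (1.44), Rxra (0.99), Ppara (0.96) and Nr1h4, the bile acid receptor (0.87), and Nr1i3 was lower by a log2 difference of -0.83. P1 heart minus ESC was 1.64 for Gata4, 1.18 for Prox1, 0.48 for Ppara and -0.08 for Nr1h4. P1 liver minus P1 heart was -0.07 for Gata4 and 0.25 for Prox1, and neither passed. Of the 23 factors, 7 bodies were higher in P1 liver than in P1 heart, where 6.09% of all bodies were. Some well-known members did not pass against ESC. Hnf4a had 1.88 and 1.61 FPKM in P1 liver and 1.07 and 0.979 FPKM in ESC, a difference of 0.72 with a 95% interval of -0.15 to 1.59, and Foxa3 had a difference of 0.53 with an interval of -0.18 to 1.25.

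**Figure D2:**
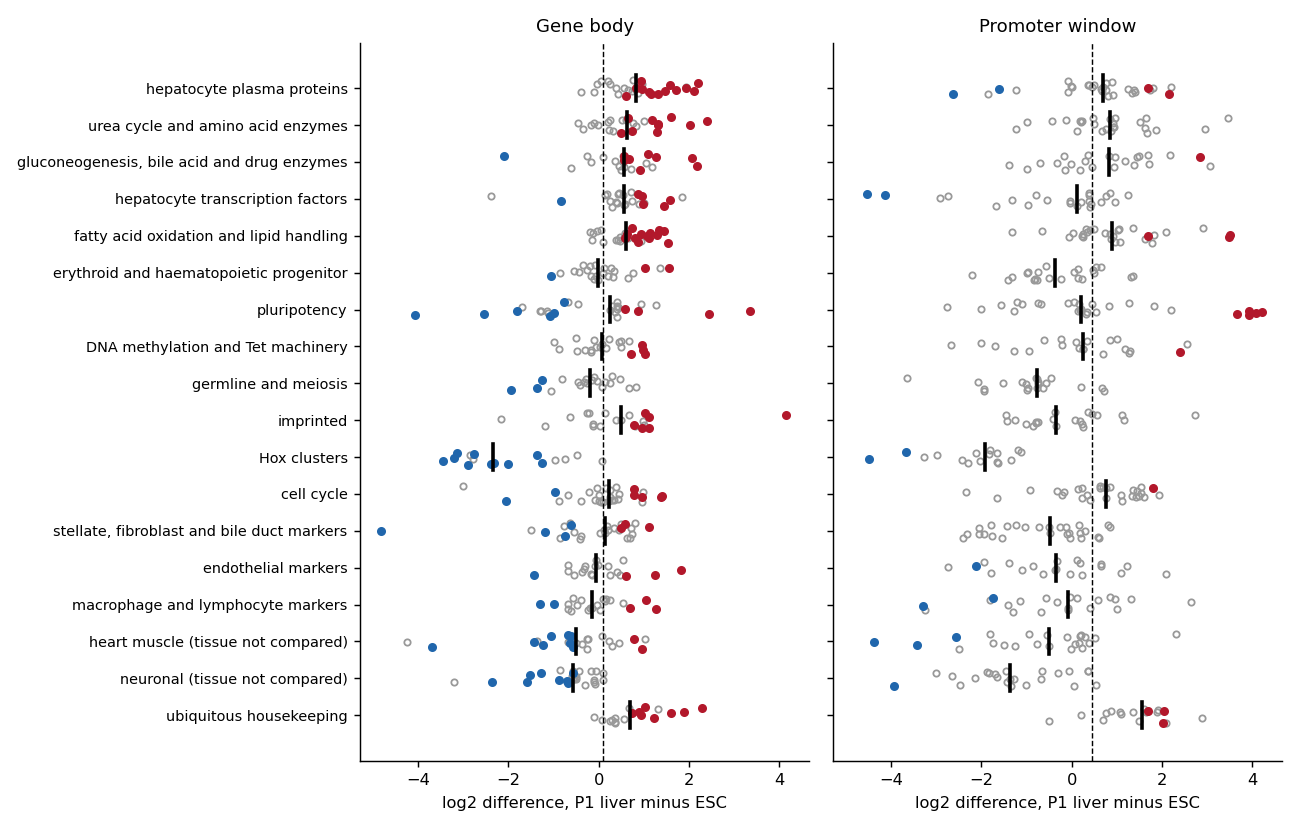
Log2 difference of P1 liver minus ESC for every tested member of 18 gene lists, in the gene body (left) and in the promoter window (right). Filled points passed the test as higher (red) or lower (blue), open points did not, black bars are list medians and the dashed lines the medians of all genes, 0.10 for bodies and 0.44 for promoter windows. In bodies the hepatocyte lists and the housekeeping list (median 0.70) lie to the right and Hox clusters far to the left.

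Shares of calls among markers of other cells of newborn liver are to be read against the 14% of all bodies that were higher and the 8.17% that were lower. Of 23 genes of red cells and blood progenitors, 2 were higher, Cd34 with 1.56 and the transferrin receptor Tfrc with 1.03, and 1 was lower (8.7% and 4.35%). Gata1, the master factor of red cell precursors, had 1 and 0.783 FPKM in P1 liver and 1.02 and 0.851 FPKM in ESC, and its 95% interval ran from -0.55 to 0.41. Of 20 endothelial markers 3 were higher (15%), namely Lyve1 (1.82), Clec4g (1.25) and Stab2 (0.61), and 1 was lower (5%), the receptor Robo4 with -1.44. Lyve1 was also higher in P1 heart than in ESC, by 1.41 with limma adjusted p = 0.0218. The other 16 endothelial markers, Stab1 (0.53) among them, did not pass. Of 21 macrophage and lymphocyte markers 3 were higher (14.3%) and 2 lower (9.52%): Ikzf1 (1.26), the leukocyte gene Ptprc (1.05) and the macrophage receptor Csf1r (0.70) rose, while Cd8a (-1.31) and the B-cell factor Pax5 (-0.99) fell. Of 27 stellate, fibroblast and bile duct markers 3 were higher (11.1%) and 4 lower (14.8%). The endothelial and the macrophage and lymphocyte shares lay near those of all bodies. In whole tissue, fewer cells of a type and less 5hmC per cell cannot be told apart. The mean log2 body level of the blood list, minus that of all genes, was 0.49 and 0.45 in P1 liver and 0.48 and 0.34 in ESC. The same measure was -0.03 and -0.04 in P1 liver and 0.04 and -0.08 in ESC for endothelial markers, and -0.59 and -0.65 in P1 liver and -0.49 and -0.30 in ESC for stellate, fibroblast and bile duct markers. For macrophage and lymphocyte markers it was -0.19 and -0.25 in P1 liver and -0.04 and -0.10 in ESC. The part of these cells in the results was not tested.

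Genes of other lineages gave mainly decreases among the bodies that passed, beside 8.17% of all bodies that were lower and 14% that were higher. Of 16 Hox genes tested, 10 had lower bodies and 0 higher, with a median log2 difference of -2.35. These homeobox genes set position along the body axis. Hoxc9 had 0.173 and 0.185 FPKM in P1 liver and 0.572 and 0.624 FPKM in ESC, a difference of -1.36 ± 0.14, and had 0 reads in both P1 heart libraries. Of 25 neuronal genes 8 were lower and 0 higher. Slc17a7, a vesicular glutamate transporter, had 0.616 and 0.302 FPKM in P1 liver and 2.81 and 2.4 FPKM in ESC, a difference of -2.36 ± 0.32, and Gad1, which makes GABA, differed by -1.60. Of 23 heart muscle genes 8 were lower and 2 higher. Ttn, the giant sarcomere protein, had 0.307 and 0.286 FPKM in P1 liver, 1.78 and 1.8 FPKM in P1 heart and 0.801 and 0.828 FPKM in ESC, so ESC lay between the tissues. Tbx5, a cardiac and limb T-box factor, had 0.346 and 0.341 FPKM in P1 liver, 1.34 and 1.46 FPKM in P1 heart and 1.28 and 0.904 FPKM in ESC. Median centring of the libraries and quantile normalization left the direction of these 3 list medians as it was.

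Of 27 pluripotency genes tested, 6 bodies were lower in P1 liver (22.2%, beside 8.17% of all bodies) and 4 were higher (14.8%, near the 14% of all bodies). Tcl1, a cofactor of Akt kinase, differed by -4.07, Dppa2 by -2.54 and Dppa4, its binding partner, by -1.80. Esrrb, an orphan nuclear receptor of the naive state, had 0.615 and 0.569 FPKM in P1 liver and 1.38 and 1.32 FPKM in ESC, a difference of -1.08 ± 0.14 (adjusted p = 0.0156). Sall4, a zinc finger factor, had 1.06 and 1.03 FPKM in P1 liver and 2.12 and 2.24 FPKM in ESC. In these genes ESC carried more 5hmC. Pou5f1, which encodes Oct4 and is the defining factor of the pluripotent state, showed the reverse. Its body of chromosome 17 (mm9 35644982 to 35647721) had 3 and 12 reads in P1 liver and 0 and 1 reads in ESC, a log2 difference of 3.35 ± 0.47 (adjusted p = 0.0161). Gdf3, a TGF-beta family ligand, differed by 2.45, Trim71 by 0.87 and Lin28b, a blocker of let-7 maturation, by 0.58. P1 heart was like P1 liver at the Pou5f1 body, with 5 and 2 reads, and its difference to ESC was 3.10.

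At the promoter window 5 of the 27 pluripotency genes were higher in P1 liver and 0 lower, where 3.7% of all windows were higher and 1.15% lower. They are named here after their values were seen: Tdgf1, Nodal, Rif1, L1td1 and Pou5f1. Tdgf1, the coreceptor Cripto of the ligand Nodal, had 4 and 26 promoter reads in P1 liver and 0 and 0 in ESC. With a floor of 3 reads over the ESC libraries it was at least 11.5-fold higher in P1 liver. L1td1, an RNA-binding protein of stem cells, had 4 and 17 reads in P1 liver and 0 and 0 in ESC, at least 8.94-fold higher. Pou5f1 had 5 and 9 reads in P1 liver and 0 and 0 in ESC, at least 7.75-fold higher. Nodal had 8 and 29 reads in P1 liver and 0 and 2 in ESC, and Rif1, a replication timing factor, 9 and 21 reads in P1 liver and 0 and 2 in ESC. The ESC windows of these genes were thus nearly without 5hmC reads. The bodies of Tdgf1 and L1td1 leaned the other way without passing, with differences of -0.68 (adjusted p = 0.0954) and -1.30 (adjusted p = 0.0555). Scaling changed the list's count: 4 were higher and 2 lower after median centring, and 5 higher and 2 lower after quantile normalization.

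The promoters of 6 genes are shown as examples of start site sequences, each as 300 bases from 250 before to 50 after the start in RefSeq (GRCm38.p6), 5′ to 3′, with CpG sites, the substrate of methylation, in capitals. Tdgf1 and L1td1 rose in their windows, Anln and Hadhb rose there and are CpG-rich, and Pdx1 and Nkx2-5, a cardiac homeobox gene, fell.
Tdgf1, chr9:110946109-110946408, minus strand: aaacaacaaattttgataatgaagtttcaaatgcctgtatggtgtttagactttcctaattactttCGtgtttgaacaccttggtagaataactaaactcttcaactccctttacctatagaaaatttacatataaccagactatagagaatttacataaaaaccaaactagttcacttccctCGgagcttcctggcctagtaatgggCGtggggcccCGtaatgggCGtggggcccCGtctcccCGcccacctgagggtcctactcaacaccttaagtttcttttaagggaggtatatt
L1td1, chr4:98726504-98726803, plus strand: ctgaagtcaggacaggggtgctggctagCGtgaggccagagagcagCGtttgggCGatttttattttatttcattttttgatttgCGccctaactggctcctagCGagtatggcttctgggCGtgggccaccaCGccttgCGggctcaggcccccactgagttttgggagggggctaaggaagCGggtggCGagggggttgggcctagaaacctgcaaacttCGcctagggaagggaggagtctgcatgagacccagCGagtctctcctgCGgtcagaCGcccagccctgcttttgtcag
Anln, chr9:22389157-22389456, minus strand: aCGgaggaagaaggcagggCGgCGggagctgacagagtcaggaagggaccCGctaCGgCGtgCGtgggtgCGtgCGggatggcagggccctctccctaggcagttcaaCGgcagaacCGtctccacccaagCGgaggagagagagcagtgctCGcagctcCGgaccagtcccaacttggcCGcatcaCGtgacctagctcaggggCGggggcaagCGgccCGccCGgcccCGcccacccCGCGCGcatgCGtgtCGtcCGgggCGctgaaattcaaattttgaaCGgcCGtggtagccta
Hadhb, chr5:30155003-30155302, plus strand: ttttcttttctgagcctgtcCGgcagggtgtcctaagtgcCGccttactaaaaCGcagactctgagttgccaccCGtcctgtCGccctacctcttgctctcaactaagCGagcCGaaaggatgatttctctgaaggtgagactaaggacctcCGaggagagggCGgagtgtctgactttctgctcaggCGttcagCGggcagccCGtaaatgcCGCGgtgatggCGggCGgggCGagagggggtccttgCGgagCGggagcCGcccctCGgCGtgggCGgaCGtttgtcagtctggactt
Pdx1, chr5:147269847-147270146, plus strand: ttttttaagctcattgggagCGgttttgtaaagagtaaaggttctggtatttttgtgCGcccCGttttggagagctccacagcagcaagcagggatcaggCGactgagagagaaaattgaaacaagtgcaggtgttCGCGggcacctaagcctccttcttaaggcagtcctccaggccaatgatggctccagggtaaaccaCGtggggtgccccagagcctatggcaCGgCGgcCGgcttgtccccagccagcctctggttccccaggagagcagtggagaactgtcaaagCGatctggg
Nkx2-5, chr17:26841516-26841815, minus strand: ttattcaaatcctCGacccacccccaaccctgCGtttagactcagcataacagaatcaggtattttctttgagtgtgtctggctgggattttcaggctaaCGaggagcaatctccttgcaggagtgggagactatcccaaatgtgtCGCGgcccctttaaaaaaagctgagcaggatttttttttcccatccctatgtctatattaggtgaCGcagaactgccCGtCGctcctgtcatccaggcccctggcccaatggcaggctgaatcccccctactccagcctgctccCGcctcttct
These stretches hold 7 CpG sites in Tdgf1, 14 in L1td1, 30 in Anln, 24 in Hadhb, 11 in Pdx1 and 9 in Nkx2-5. A share of 83.2% of the 8344 promoters matched had as many CpG as Tdgf1 or more, and 20.9% had as many as Anln or more. This share was 67.5% for L1td1, 37.4% for Hadhb, 74.3% for Pdx1 and 78.4% for Nkx2-5. These 6 genes were picked as examples, so their CpG counts cannot show whether windows that rose and windows that fell differ in CpG content. The motif counted is CG, which reads the same on both strands.

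Across all genes the promoter window moved further towards P1 liver than the body did. The median log2 difference was 0.44 for promoter windows and 0.10 for bodies. Promoter windows took 5.94% and 5.42% of the reads in P1 liver and 4.59% and 4.26% in ESC, and P1 heart was like ESC with 4.52% and 4.11%. Bodies took 63.3% and 58.6% of the reads in P1 liver and 56.1% and 53.3% in ESC, where reads in overlapping genes may count more than once. Promoter reads per 100 body reads were 9.37 and 9.24 in P1 liver and 8.19 and 7.99 in ESC. The groups did not overlap in any of these 3 measures, and the exact permutation test over the 4 libraries gave p = 0.333 (two-sided), the smallest that 6 arrangements allow.

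The difference between P1 liver and ESC windows was seen at CpG-rich promoters. Among 8344 genes with 1 RefSeq start, the 1189 with 0 to 5 CpG sites in 300 bases had a median promoter level of 0.786 and 0.773 FPKM in P1 liver and 0.744 and 0.757 FPKM in ESC, and a median log2 difference of -0.02. The 1952 genes with 6 to 15 sites had a median difference of 0.15. The 2609 genes with 16 to 25 sites had 1.05 and 0.983 FPKM in P1 liver and 0.62 and 0.568 FPKM in ESC, with a median difference of 0.69, and the 2594 genes with 26 to 65 sites had the same medians and a difference of 0.75. P1 heart had 0.589 and 0.461 FPKM at 0 to 5 sites, below the others, and 0.785 and 0.692 FPKM at the CpG-rich classes, between the others. Compared with 0 to 5 sites, the medians at 16 or more sites were thus higher in P1 liver and P1 heart and lower in ESC. The change was not steady in ESC, which had 0.868 and 0.82 FPKM at 6 to 15 sites, above its values at 0 to 5. At 6 to 15 sites P1 liver had 1.05 and 0.843 FPKM, and P1 heart had 0.785 and 0.692 FPKM, as in the CpG-rich classes. Gene body differences of the same 4 classes were -0.01, -0.04, 0.09 and 0.22. Window values are whole reads in 4000 bp, so class medians fall on few steps. The classes are a description, with no test.

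**Figure D3:**
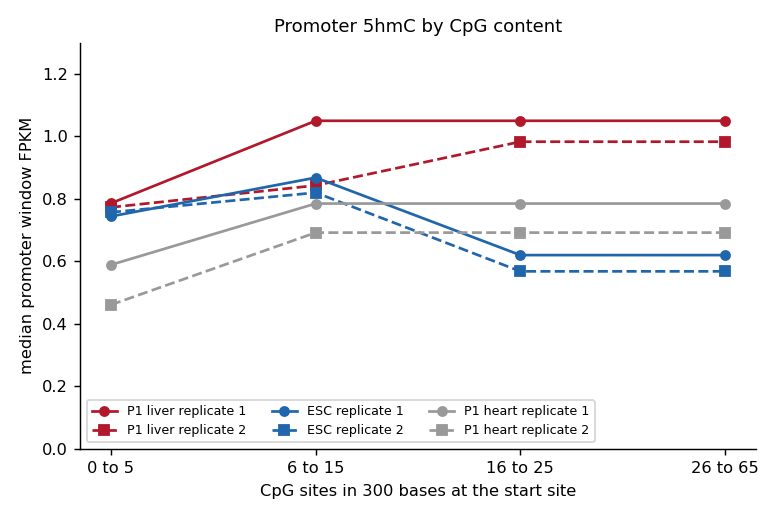
Median promoter window FPKM (vertical axis) of genes grouped by the number of CpG sites in 300 bases at their RefSeq start (horizontal axis), 1 line per library. P1 liver and ESC lines lie together at 0 to 5 sites and apart at 16 or more, where P1 liver stands at 0.983 to 1.05 and ESC at 0.568 to 0.62. P1 heart stands at 0.589 and 0.461 at 0 to 5 sites and at 0.785 and 0.692 at 16 or more.

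Fewer promoter windows than bodies passed the test. Of 13391 windows, 649 did (4.85%), with 495 higher (3.7%) and 154 lower (1.15%) in P1 liver. This balance depends on scaling, for after median centring, which takes out the common shift, 157 windows were higher and 443 lower, and quantile normalization gave 344 higher and 577 lower. At most 1 window passed without any 1 of the 4 libraries and 0 without a variance trend, while 1723 and 1776 passed without P1 heart replicate 1 or 2. Lower windows included those of developmental factors, some of them named after their values were seen. Pdx1 had 0 and 1 promoter reads in P1 liver and 16 and 43 in ESC, a log2 difference of -4.47 ± 0.93 (adjusted p = 0.0334). Tbx5 had 0 and 1 reads in P1 liver and 18 and 34 in ESC. Hoxc10 had 0 and 1 reads in P1 liver and 21 and 34 in ESC. Nkx2-5 had 1 and 3 reads in P1 liver and 14 and 29 in ESC, a difference of -2.57 ± 0.54. All 4 had lower bodies too.

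The window of Onecut2, a cut-homeobox factor of liver and bile duct that was named after its values were seen, fell and its body did not pass. It had 0 and 0 promoter reads in P1 liver and 11 and 20 in ESC, at least 7.9-fold lower in P1 liver (limma adjusted p = 0.0315, and 0.131 to 0.295 without 1 of these 4 libraries). Its body had 0.948 and 0.771 FPKM in P1 liver and 0.744 and 0.744 FPKM in ESC, a difference of 0.18 with a 95% interval of -0.23 to 0.59. P1 heart had 2 and 1 promoter reads there. Among the hepatocyte genes whose windows rose, Hadha and Hadhb, the subunits of the mitochondrial trifunctional protein, are divergent neighbours with nearly the same window reads, 8 and 21 for Hadha and 8 and 20 for Hadhb in P1 liver against 0 and 4 for each in ESC, so they count as 1 observation. Complement C3 had 9 and 29 promoter reads in P1 liver and 4 and 6 in ESC, a difference of 2.15 ± 0.50 (adjusted p = 0.0374). G6pc, the last enzyme of glucose release, had a window difference of 2.84.

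Window and body of a gene mostly pointed the same way where both passed. Among the 13391 genes tested in both, 125 were higher in both, 56 were lower in both and 6 passed in opposite directions. Beyond these, 1754 were higher and 1032 lower in the body alone, and 365 were higher and 97 lower in the window alone. Fitted without any gene of chromosome 14, whose stretch is described below, 73 genes were higher in both and 47 lower in both. Signs agreed in 65.7% of all genes. Among bodies that passed as higher, 82.7% had a window difference above 0 and 67.4% lay above the median of all windows. Among bodies that passed as lower, 74.9% had a window difference below 0 and 15.9% lay above that median. Across genes the 2 readings come from the same libraries and share their depth and scaling.

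**Figure D4:**
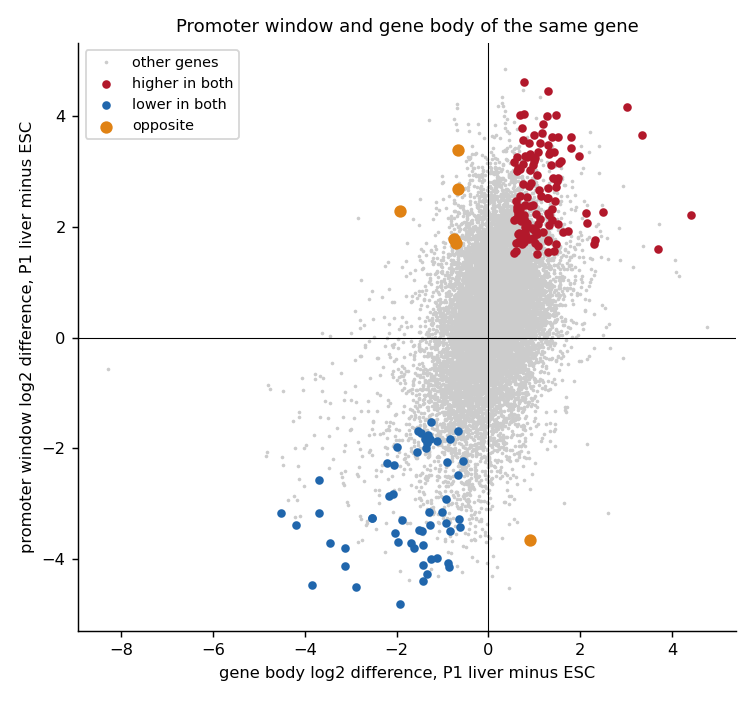
Log2 difference of P1 liver minus ESC in the promoter window (vertical axis) against the gene body (horizontal axis), 1 point per gene for 13391 genes. Red genes passed as higher in both (125), blue genes as lower in both (56) and orange genes in opposite directions (6); the cloud is shifted upwards, with medians of 0.44 in windows and 0.10 in bodies.

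The 6 opposite genes, named after their values were seen, were Anln, Dus3l, Impa2, Nup107 and Zfp74, with lower bodies and higher windows, and Slc1a2 with the reverse. Their number rests on the libraries fitted: 0 genes passed in opposite directions without any 1 of the 4 P1 liver and ESC libraries, and 29 and 33 without P1 heart replicate 1 or 2. Anln, the cytokinesis protein anillin, had 0.637 and 0.783 FPKM over its body in P1 liver and 1.2 and 1.15 FPKM in ESC (-0.67 ± 0.15). Its promoter window, whose CpG-rich start is shown above, had 9 and 25 reads in P1 liver and 2 and 4 reads in ESC (2.69 ± 0.53). Dus3l, a tRNA-modifying enzyme, had 14 and 47 promoter reads in P1 liver against 6 and 9 in ESC (2.29 ± 0.41), and 2 and 19 body reads in P1 liver against 27 and 55 in ESC (-1.92 ± 0.42). Slc1a2, the main glutamate transporter of astrocytes, had 0 and 2 promoter reads in P1 liver against 12 and 26 in ESC (-3.64 ± 0.87), with a body difference of 0.90 ± 0.15. The windows of Impa2, Nup107 and Zfp74 missed the threshold after median centring. No gene passed the test of the window change against the body change itself: limma called 0 of 13391, with 2495 at an unadjusted p under 0.05, whereas voom weights on the recovered reads called 2725. Genes that passed in 1 reading only are therefore not shown to differ between the readings in the limma test.

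Genes of a stretch of chromosome 14 differed together from ESC. Its bounds, 40 to 75 Mb in mm9, were chosen after the values were seen, so it is a description with no test. Of its 241 tested genes, 114 bodies were higher in P1 liver, 47.3%, and 1 was lower, and the median difference was 0.93 for bodies and 1.23 for windows. The other 231 genes of chromosome 14 had a median of 0.22 and the 12976 genes elsewhere 0.09. ESC stood apart from each tissue library here. Relative to the median of its own library, the stretch lay at -0.02 and -0.03 in P1 liver, between -0.12 and 0.05 in all 10 tissue libraries of the series, and at -0.85 and -0.92 in ESC (log2). P1 heart minus ESC had a median of 0.69 in the same genes. Unenriched DNA was not analysed here, so less 5hmC and fewer copies of this DNA in the ESC cannot be told apart. Among the passing genes of the stretch were Slc25a37, Loxl2, Ctsb, Gata4, Mat1a and Rb1, the retinoblastoma gene. Without any gene of chromosome 14, 1673 bodies were higher and 1060 lower.

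**Figure D5:**
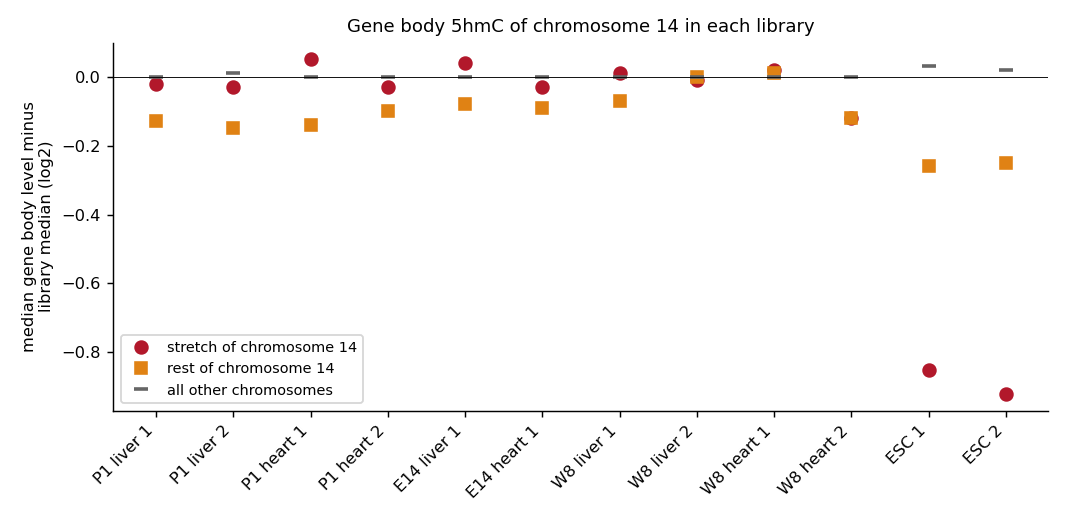
Median gene body level of the chromosome 14 stretch, of the rest of chromosome 14 and of all other chromosomes, each minus the median of its library (log2, vertical axis), in all 12 libraries (horizontal axis). The stretch lies between -0.12 and 0.05 in the tissue libraries and at -0.85 and -0.92 in ESC.

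The lists of DNA methylation and its oxidation and of imprinting gave no passing decrease. The first of them had a median log2 difference of 0.08, beside 0.10 over all genes, so nothing particular to it is read from its calls. Tet1 and Tet3 were not among the bodies tested. Of 21 genes of DNA methylation and its oxidation, 4 had higher bodies (19%, beside 14% of all bodies) and 0 lower (beside 8.17%): Idh1 (1.02), which makes the Tet cosubstrate alpha-ketoglutarate, the methyl-CpG binder Mbd2 (0.98), the glycosylase Mbd4 (0.96) and Uhrf2, a reader of modified cytosine (0.72). Mbd4 and Uhrf2 missed the threshold after median centring and after quantile normalization. Tet2 had 0.999 and 0.782 FPKM in P1 liver and 0.712 and 0.785 FPKM in ESC (95% interval -0.19 to 0.63), and Dnmt3b had 1.18 and 0.922 FPKM in P1 liver and 1.12 and 1.05 FPKM in ESC (interval -0.68 to 0.58). Of 21 imprinted genes 6 were higher (28.6%) and 0 lower. Zrsr1, a retrogene with a short body, had 2 and 6 reads in P1 liver and 0 and 0 in ESC, at least 3.77-fold higher. Grb10, a growth inhibitor, differed by 1.11 and Igf2r, the receptor that clears Igf2, by 1.02, while Airn, with 0.95, overlaps Igf2r, so the 2 cannot be separated. Igf2 itself had 0.0948 and 0.533 FPKM in P1 liver and 1.43 and 1.39 FPKM in ESC, a difference of -2.16 with adjusted p = 0.0583.

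Housekeeping genes, in use in every cell, also gave increases alone among the bodies that passed. Of 18 housekeeping genes tested, 8 bodies were higher (44.4%, beside 14% of all bodies) and 0 lower, with a median of 0.70. Of their 18 windows 3 were higher and 0 lower, where 3.7% of all windows were higher and 1.15% lower. The window median was 1.55, beside 0.44 over all genes. Actb, the gene of cytoplasmic actin, had 5.75 and 5.31 FPKM in P1 liver, 3.35 and 2.81 FPKM in P1 heart and 1.21 and 0.923 FPKM in ESC, a difference to ESC of 2.29 ± 0.20 (adjusted p = 0.0145). B2m, the light chain of MHC class I, differed by 1.89 and Hprt by 1.61. After median centring no housekeeping window passed, while 8 bodies did. Of 29 cell cycle genes 5 were higher (17.2%) and 2 lower (6.9%), near the 14% and 8.17% of all bodies, among them the proliferation marker gene Mki67 with 1.38 and Plk1, a mitotic kinase, with -0.96.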

How the data were processed

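Per the submitters' processing notes, the pull-down reads were mapped on mm9 by Bowtie2. Its version and the counting program were not given in the sources used here. The authors' tables, per the file headers, hold deposited FPKM of a promoter window and a gene body for each gene. The tables name no chromosome, so chromosomes came from RefSeq (GRCm38.p6), which matched 13534 genes, and positions are those of the tables, counted from 1. The 13581 genes include 23 lacking coordinates and 9 whose body length is not above 0, which were left out. Window and body abut without overlap in every gene used, although the design had taken them to overlap.

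FPKM converted back to whole reads in all paired-end libraries (100% within 0.02 reads), which gave depth. Counting errors and floors of 3 reads cover counting only, since reads carry no molecular identifiers. With R 4.3.3 and limma 3.58.1, a mean for each of 3 groups was fitted to log2(FPKM + 0.0873) for bodies and log2(FPKM + 0.0786) for windows, in the 6 paired-end libraries (P1 liver, ESC, P1 heart; 3 residual degrees of freedom), with moderated variances and a trend. The pseudocount is the median non-zero value divided by 10, and genes with a lower mean were left out. Log2 differences are on that scale and understate changes of low genes. P-values were adjusted by Benjamini-Hochberg over all genes tested. P1 heart enters through the shared spread, and through the pseudocounts and the filter on low means, which use all 6 libraries.

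Named genes were the 12 largest passing changes in each direction with at least 20 reads in each library of the higher group, the 4 smallest p-values of each list and a few fixed genes; others are named as chosen after their values were seen. The 18 lists hold 525 genes, of which 417 are in the tables. The genes compared and the lists were chosen with earlier results of these data known. Alternatives covered the pseudocount, the filter, scaling, the libraries fitted, the variance model, a replicate block and leaving out each library. Some genes of the lists are not reported here by name.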

Additional observations from a re-analysis of the deposited data

How the results depend on the processing

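Of the 2987 body calls, the count stayed within 1.5 times under another pseudocount, filter or scaling, without a variance trend, with the 4 P1 liver and ESC libraries alone and without chromosome 14 (an alternative chosen after seeing the data). Fitted alone, 3578 of the 7710 bodies of 20 kb or more passed (46.4%), where 2084 of them (27%) passed in the fit of all bodies. The count was 4548 with 11 libraries, all but the shallow W8 heart replicate 2, and 6579 with voom weights on recovered reads. Leaving out 1 library gave 0 to 3414 body calls: 0 without P1 liver replicate 1, 71 without P1 liver replicate 2, 7 without ESC replicate 1 and 10 without ESC replicate 2. Where a group kept 1 library, it was assumed to vary like the other groups, and fewer samples were fitted. Of the 649 window calls, 1997 were found with a pseudocount of the median divided by 2, 0 with the median divided by 50, 29 with all 12 libraries, 2166 without W8 heart replicate 2, 1881 with 4 libraries, 0 without a variance trend, 4553 with voom, 350 in bodies of 20 kb or more and 0 to 1776 without 1 library. The 181 genes called alike in both readings became 575, 0, 9, 762, 558, 0 and 2059 under the larger and smaller pseudocount, 12 libraries, 11 libraries, 4 libraries, no trend and voom, 320 after quantile normalization, 120 without chromosome 14, and 0 to 526 without 1 library. The 6 genes called in opposite directions became 31 and 0 under the larger and smaller pseudocount, 10 with a minimum 5 times higher, 14 after median centring, 19 after quantile normalization, 1 with 12, 73 with 11 and 32 with 4 libraries, 0 without a trend, 320 with voom, 14 in bodies of 20 kb or more, 4 with a replicate block and 0 to 33 without 1 library. The 0 calls of window against body change became 487 with the larger pseudocount, 1 with a minimum 5 times higher, 64 after quantile normalization, 241 with 11 libraries, 1 with 4 libraries, 2725 with voom and 0 to 1 without 1 library; the cause was not tested. Replicate numbers were not used to pair the samples. Deviations of equally numbered P1 liver and ESC libraries correlated across genes at 0.03 (bodies) and 0.01 (windows). Replicates differed by little more than counting noise, so these correlations cannot show whether the samples are paired. With a replicate block 2243 bodies, 657 windows and 131 genes in both passed. Leaving out 1 library turned the direction of 3 named bodies, which had not passed: Dnmt3b ranged from -0.22 to 0.12 (0.12 without P1 liver replicate 2), Gata1 from -0.23 to 0.09 and Tal1 from -0.54 to 0.17, both above 0 without P1 liver replicate 2 (0.09 and 0.17) or ESC replicate 1 (0.05 and 0.13).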

Other observations

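Bodies of X-linked genes had a lower median read density than the library as a whole in each of the 6 paired-end libraries. Relative to the library median, the 377 X-linked bodies lay at -1.27 and -1.33 in P1 liver, -1.41 and -1.35 in P1 heart and -1.75 and -1.67 in ESC (log2). Of these, 67 were higher in P1 liver than in ESC, 17.8% beside 14% of all bodies, and 2 were lower, beside 8.17% of all bodies. The sex of the animals and cells was not used and unenriched DNA was not analysed here, so less 5hmC and fewer copies of the X chromosome cannot be told apart.

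Longer gene bodies, which hold more reads, had a larger share of increases up to 200 kb. Of bodies up to 5 kb, with a median of 10 reads, 5.75% were higher and 8.87% lower in P1 liver, and of bodies of 100 to 200 kb, with a median of 221 reads, 25.5% were higher and 9.52% lower. In genes with bodies above 200 kb the promoter windows had a median log2 difference of -0.34, beside 0.62 for bodies of 20 to 50 kb.

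Of 20 germline and meiosis genes tested, 3 bodies were lower in P1 liver (15%, beside 8.17% of all bodies) and 0 higher. They were Piwil1, a piRNA-binding protein, with -1.95, Zp3, a protein of the egg coat, with -1.37, and Nlrp14 with -1.26.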
